A study of Mus musculus with 12 samples.

Results

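For each gene, the interaction of genotype and assay asks whether ribosome-protected fragments (RPF) differed between mutant and wild-type T cells by more, or by less, than the transcript itself did. It was examined in 6335 of the 45669 genes or joined genes of the count table. These were the nuclear protein-coding genes with a mean of at least 50 raw counts both in the total RNA libraries and in the RPF libraries. The genotypes were WT/WT and Anaef/Anaef, the second homozygous for the Anaef allele of Rasgrp1, in C57BL6 mice 12 weeks old. All libraries came from CD4+ T cells of lymph nodes, enriched by magnetic removal of other cells and given no stimulus that the labels name. For total RNA there were 4 libraries a genotype, numbered 1 to 4 in WT and 5 to 8 in Anaef. For RPF there were 2 pools a genotype, named 1B and 2B in WT and 3B and 4B in Anaef, with 2 samples in each pool. Cells for RPF, and not those for total RNA, were treated with cycloheximide, which holds ribosomes in place. The labels do not say which animals entered which pool, and p-values measure the spread between these libraries and pools.

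Rasgrp1 switches Ras on by exchanging its GDP for GTP when the T cell receptor (TCR) signals, and Anaef is a point-mutant form of it. T cells that carry Anaef have been described as having raised basal signalling through mTORC1, a kinase complex that promotes protein synthesis. The mRNAs most dependent on mTORC1 for translation are the TOP mRNAs, which begin with a C followed by a run of pyrimidines and encode ribosomal proteins and several translation factors. An RPF is a piece of mRNA that stays whole under nuclease because a ribosome covers it, so the count of RPF of a gene rises with the number of its mRNAs and with the number of ribosomes on each. A change of RPF relative to total RNA is therefore commonly read as a change in ribosomes per mRNA.

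Depth was 15326842 to 40046317 counts in the total RNA libraries and 2868943 to 7009342 in the RPF libraries. Of these the 6335 genes held 33.5% to 48.6% and 82.6% to 88.6%. Both WT pools, at 7009342 and 4044330 counts, were deeper than both Anaef pools, at 3464868 and 2868943. The count minimum was set on raw counts, in which the deeper pools weigh more. A further 3646 nuclear protein-coding genes passed the minimum in total RNA and not in RPF, and 161 passed it in RPF and not in total RNA. Wdr45b and Zfp882, with a mean of 49.75 RPF counts, lay just outside the minimum, and Accs and Fam45a, with a mean of 50, just inside it. Cd4 gave 1227 to 2466 CPM (read counts put on a common library size) in total RNA, and Cd8a, which marks CD8 T cells, at most 2.26 CPM. Cd8b1, also a marker of CD8 T cells, gave 5.47 to 17.8 CPM in total RNA. Plasma cell markers summed to 1831 to 10212 CPM in WT and 608 to 1217 CPM in Anaef total RNA, and to 11535 to 37452 CPM in WT and 2591 to 8078 CPM in Anaef RPF. These bulk values cannot tell fewer cells of a type from less RNA per cell. The part of these markers in the results below was not tested beyond the scaling alternatives.

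No gene passed the test of the interaction. With edgeR's quasi-likelihood test and Benjamini-Hochberg adjustment over all 19031 genes tested, 0 genes had an adjusted p under 0.05, a background of 0%, and 0 of the 6335 did, with a smallest adjusted p of 0.418. At an unadjusted p under 0.05, 296 of the 6335 (4.67%) passed, against 3.34% of all genes tested. Among all genes tested, 302 of those that passed had a higher RPF-to-RNA ratio in Anaef and 334 a lower one. Of the 296, 61 had a higher ratio and 235 a lower one. Without Anaef replicate 7, 105 were higher and 276 lower. The median interaction of the 6335 genes, -0.052 with all libraries, stayed below 0 with any pool left out. It was -0.063 without WT pool 1B, -0.065 without 2B, -0.074 without Anaef pool 3B and -0.084 without 4B. The lean to lower ratios was less with other tools and scalings. DESeq2 gave 235 lower and 106 higher, limma-voom 76 and 33, and limma-voom with sample quality weights 430 and 194. RLE size factors gave 196 and 80, and the 6335 genes fitted alone 191 and 91. With no filter on low counts the lean was greater, at 236 lower and 41 higher. limma-voom, with and without sample quality weights, also called 0 of the 6335, while DESeq2 called 7, described below. The smallest adjusted p of limma-voom was 0.0649 with quality weights, in Ets1, and 0.99985 without them.

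The changes were about as large as the error of a single gene. Over the 6335 genes the interaction, on the log2 scale, had a median of -0.05, and 80% of the genes lay between -0.59 and 0.48, with an SD over genes of 0.45, while the median standard error (SE) of a gene was 0.40. Its value was above 0 in 2829 genes and below 0 in 3506, against 9705 and 9326 of all genes tested. The split moves with the scaling, since 3131 of the genes were below 0 when the 6335 were scaled and fitted alone, where the median was 0.01. In 231 genes (3.65%) the change exceeded 1 in size, 100 higher and 131 lower. Of these, 122 lay in the lowest quartile of RPF counts, where the median SE was 0.52, and 16 in the highest, where it was 0.30.

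Total RNA and RPF taken singly gave no call among these genes either. In the same fit, total RNA differed in 4 of the 19031 genes (0.021%), none among the 6335 (0 of them). At an unadjusted p under 0.05, 495 of the 6335 (7.81%) passed, against 7.85% of all genes tested, and DESeq2 called 43. RPF differed in 0 of all genes tested (0%). Of the 6335, 273 (4.31%) had an unadjusted p under 0.05, against 2.93% of all genes tested, and DESeq2 called 9. The 235 genes with a lower ratio differed mostly in RPF: in 190 the RPF change was the larger in size, with a median of -0.63 against 0.26 in total RNA. The 61 genes with a higher ratio were divided evenly, 31 with the larger change in RPF and 30 in total RNA, with medians of 0.44 and -0.49. Both sets were chosen for a difference between the 2 changes, which favours opposite signs. Over the 6335 genes the median SE was larger in RPF, at 0.33, than in total RNA, at 0.23. The fit gave each gene the same spread for both assays, and RPF had 2 pools a genotype against 4 libraries. These SE are thus no measure of a larger spread in RPF. Sample quality weights of limma-voom are larger where a library varies less. They were 2.78 to 4.93 in the RPF pools and 0.24 to 1.06 in the total RNA libraries.

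**Figure D1:**
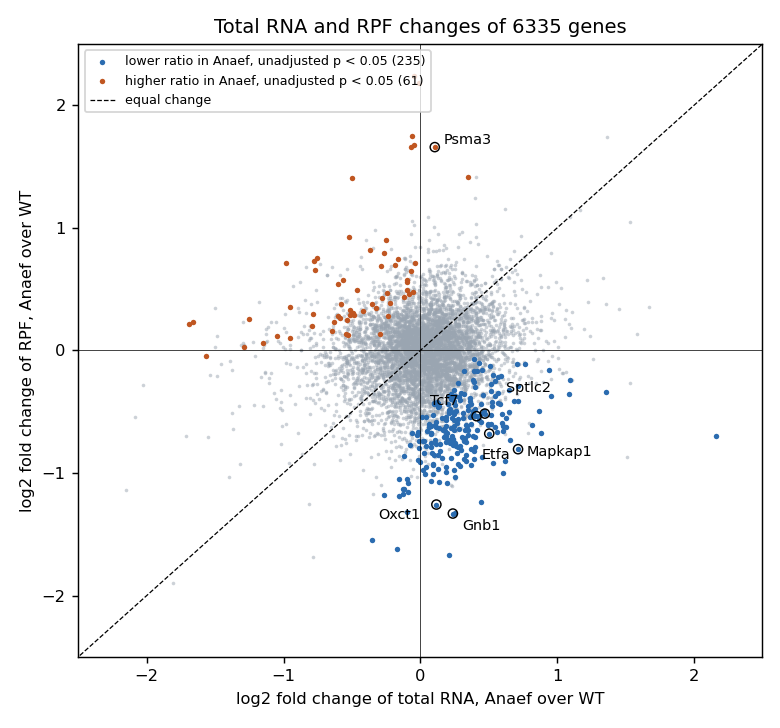
Log2 fold change of Anaef over WT in total RNA (x axis) and in RPF (y axis) for the 6335 genes, with 3 genes outside the axes. Coloured points are the 235 genes with a lower ratio and the 61 with a higher ratio at an unadjusted p under 0.05, the dashed line marks equal changes, and the circled names are the 7 genes that DESeq2 called; most blue points lie below 0 on the RPF axis.

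The ratio differed more between genotypes than between pools of 1 genotype in many genes and less in many others. For each pool the log2 ratio of its RPF to the mean total RNA of its genotype was taken. The genotypes differed in this ratio by a median of 0.27 in size over the 6335 genes, pools 1B and 2B by 0.21 and pools 3B and 4B by 0.18. The difference exceeded 1 in 250 genes between genotypes (3.95%), in 45 between the WT pools (0.710%) and in 69 between the Anaef pools (1.09%). The genotype value is a difference of means of 2 pools and the others are differences of single pools, so they are not measured alike. The genotype difference exceeded both pool differences in 2959 genes (46.7%) and did not in 3376. Both Anaef pools lay above both WT pools in 1721 genes (27.2%), against 37.9% of all genes tested, and below both in 1997 (31.5%), against 31.7%. With 2 pools a genotype, pools apart were thus a common state and no mark of a gene.

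Of the 10 genes with the smallest p in the lower direction, 5 encode proteins of T cell state or G protein and TOR signalling. Gnb1 (chromosome 4, 155491361 to 155559269 of GRCm38, plus strand) encodes a beta subunit of heterotrimeric G proteins, which pass signals from chemokine receptors. Its total RNA was 112, 109, 89.4 and 116 CPM in WT and 132, 134, 114 and 123 CPM in Anaef. Its RPF was 59.4 and 70.3 CPM in the WT pools and 24.9 and 26.6 CPM in the Anaef pools. All Anaef pools were below all WT pools in RPF, whereas total RNA overlapped between the genotypes. The interaction was -1.57 (SE 0.24, unadjusted p = 2.2e-05, edgeR adjusted p = 0.418), between -1.71 and -1.45 over the alternative settings. DESeq2 gave -1.53 with an adjusted p of 4.04e-06.

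Tcf7 (chromosome 11, 52252371 to 52283014, minus strand) encodes TCF-1, a transcription factor that naive and long-lived T cells hold at high levels. Its total RNA was 1191, 1154, 1107 and 1162 CPM in WT and 1705, 1535, 1329 and 1563 CPM in Anaef, with every Anaef library above every WT library. Its RPF went the other way, with 577 and 678 CPM in WT and 435 and 430.0 CPM in Anaef. The interaction was -0.95 (SE 0.19, edgeR adjusted p = 0.838), and DESeq2 gave -0.91 with an adjusted p of 0.00711. Klf3, a zinc-finger repressor, had 286 to 325 CPM of total RNA in WT and 269 to 477 CPM in Anaef. Its RPF was 64.2 and 73.7 CPM in WT and 37.1 and 30.1 CPM in Anaef, an interaction of -1.29 (SE 0.30). Ets1, an Ets-family factor of resting T cells, had 496 to 549 CPM of total RNA in WT and 458 to 619 CPM in Anaef. Its RPF was 1137 and 1088 CPM in WT and 660.0 and 681 CPM in Anaef, an interaction of -0.84 (SE 0.20). In these last 2 genes total RNA overlapped between the genotypes and RPF did not.

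Mapkap1 encodes Sin1, a subunit of mTORC2, the TOR complex that phosphorylates Akt. Its total RNA was 39.7, 43.1, 44.2 and 44.8 CPM in WT and 63.0, 67.5, 64.0 and 87.3 CPM in Anaef, again without overlap. Its RPF was 14.2 and 12.8 CPM in WT, from 135 and 74 counts, and 10.2 and 5.13 CPM in Anaef, from 50 and 21 counts. Its mean of 70.0 RPF counts passed the minimum of 50 only through the WT pools, where the ratio was higher. The interaction was -1.52 (SE 0.36), and DESeq2 gave -1.48 with an adjusted p of 0.0360. RPF lay below WT in both Anaef pools but by unequal amounts, and the interaction ran from -2.11 to -1.15 over the alternative settings.

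The other genes of the 10 serve metabolism and membrane traffic. Oxct1, the mitochondrial enzyme that activates ketone bodies for oxidation, had 70.9, 85.9, 112 and 75.2 CPM of total RNA in WT and 77.7, 108, 87.5 and 99.1 CPM in Anaef. Its RPF was 81.9 and 81.6 CPM in WT and 34.7 and 33.7 CPM in Anaef, so the pools of a genotype were nearly equal and the genotypes far apart. The interaction was -1.37 (SE 0.30), with an adjusted p of 0.0392 by DESeq2. Etfa, a subunit of the flavoprotein that carries electrons from fatty acid oxidation to the respiratory chain, had 17.2 to 22.9 CPM of total RNA in WT and 23.0 to 31.7 CPM in Anaef. Its RPF was 66.4 and 60.6 CPM in WT and 40.0 and 39.4 CPM in Anaef, an interaction of -1.18 (SE 0.29). Sptlc2 encodes a subunit of the first enzyme of sphingolipid synthesis. Its total RNA was 47.9 to 62.2 CPM in WT and 69.8 to 80.7 CPM in Anaef, without overlap. Its RPF was 65.6 and 60.4 CPM in WT and 43.2 and 45.0 CPM in Anaef. The interaction of -0.99 (SE 0.24) came from a total RNA change of 0.47 and an RPF change of -0.52. DESeq2 called both Etfa and Sptlc2, each with an adjusted p of 0.0471. Scarb2, a lysosomal membrane protein, had -0.98 (SE 0.23) and Ehd3, a protein of endosomal recycling, had -1.04 (SE 0.25). In all 10 genes the change in RPF was larger in size than the change in total RNA, and the 2 changes had opposite signs. Choice by the interaction favours opposite signs.

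**Figure D2:**
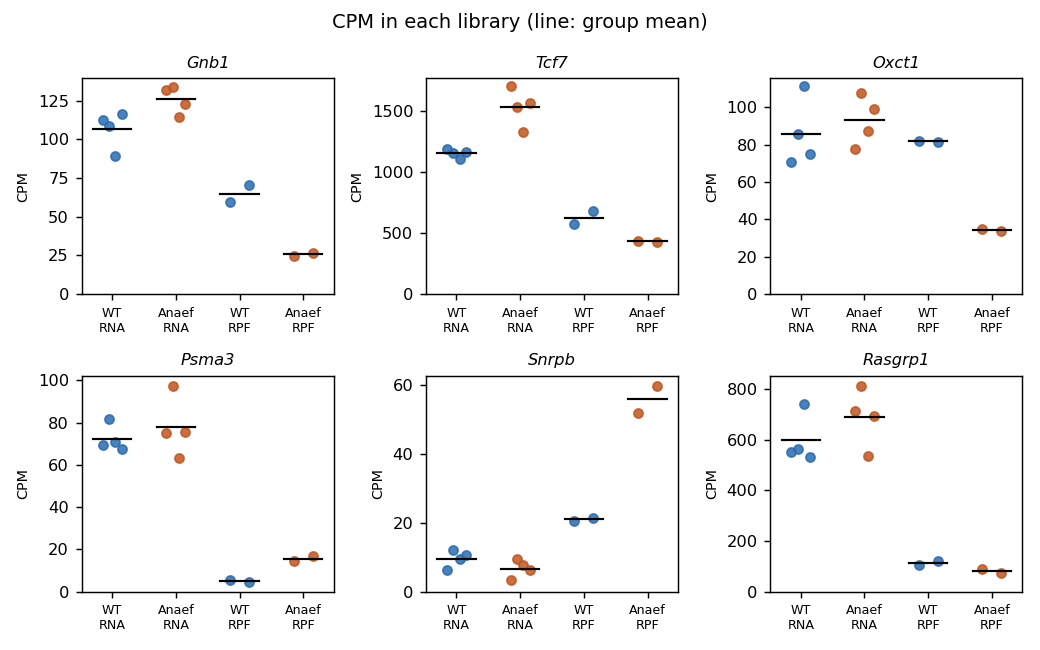
CPM of Gnb1, Tcf7, Oxct1, Psma3, Snrpb and Rasgrp1 in each library (points) with the mean of each group (line), in 4 total RNA libraries and 2 RPF pools a genotype. In Gnb1, Tcf7 and Oxct1 both Anaef pools lie below both WT pools in RPF, and in Psma3 and Snrpb both lie above them.

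Among the 10 genes with the smallest p in the higher direction, Psma3 and Snrpb stood on RPF and most others on total RNA or on 1 pool. Psma3 (chromosome 12, 70974621 to 70996347, plus strand) encodes an alpha subunit of the core proteasome. Its total RNA was 69.2, 81.7, 70.8 and 67.5 CPM in WT and 75.1, 97.3, 63.1 and 75.4 CPM in Anaef, which overlap. Its RPF was 5.36 and 4.49 CPM in WT, from 51 and 26 counts, and 14.5 and 16.9 CPM in Anaef, from 71 and 69 counts. The interaction was 1.55 (SE 0.31, edgeR adjusted p = 0.838), between 1.41 and 1.67 over the alternative settings, and DESeq2 gave 1.59 with an adjusted p of 0.0129. It was the 1 gene with a higher ratio among the 7 that DESeq2 called. The proteasome list as a whole was divided: of 34 subunits 20 had a value above 0 and 14 below, with a median of 0.05.

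Snrpb (chromosome 2, 130171414 to 130179403, minus strand) encodes a core Sm protein of the spliceosome. Its total RNA was 6.24, 12.0, 9.35 and 10.7 CPM in WT and 3.30, 9.52, 7.77 and 6.31 CPM in Anaef. Its RPF was 20.5 and 21.4 CPM in WT and 51.8 and 59.6 CPM in Anaef, more than 2-fold apart where total RNA overlapped. The interaction was 1.91 (SE 0.53, edgeR adjusted p = 1), between 1.69 and 2.10 over the alternative settings. Elp5, a subunit of the tRNA-modifying Elongator complex, had 7.99 and 5.18 CPM of RPF in WT and 12.0 and 13.2 CPM in Anaef, an interaction of 1.45 (SE 0.47).

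In 5 of the other genes the total RNA difference, below 0 in Anaef, was the larger in size. Gabrr2, a subunit of a GABA receptor, had 17.6 to 27.1 CPM of total RNA in WT and 8.40 to 10.6 CPM in Anaef, against 7.68 and 11.4 CPM of RPF in WT and 9.99 and 9.78 CPM in Anaef. Tmem9, a membrane protein of lysosomes, had 6.36 to 9.39 CPM of total RNA in WT and 2.16 to 5.17 CPM in Anaef, with RPF at 8.52 and 9.49 CPM and at 11.4 and 10.0 CPM. Swap70, a signalling protein abundant in B cells, had 4.11 to 9.06 CPM of total RNA in WT and 0.933 to 3.0 CPM in Anaef. Gm12166 and Cand2, a regulator of cullin ubiquitin ligases, shared the pattern, with changes in total RNA of -1.66 and -0.60. The interactions of the 5 were 1.21, 1.51, 1.91, 1.89 and 1.15, with SE of 0.40, 0.51, 0.66, 0.51 and 0.39. The 18 B cell markers summed to 874 to 1237 CPM in WT and 978 to 1603 CPM in Anaef total RNA, and to 425 to 936 CPM in WT and 391 to 541 CPM in Anaef RPF, and none was at 0 in every library. Of the defining ones, Cd79a gave 2.02 to 10.9 CPM in WT and 0.124 to 7.94 CPM in Anaef total RNA. Their part in the result for Swap70 was not tested.

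Gm17555 and Gm21962 rested on pool 3B. Gm17555 had 5.89 and 10.2 CPM of RPF in the WT pools, 62.4 CPM in 3B and 9.29 CPM in 4B. Gm21962 had 7.47 and 11.9 CPM in the WT pools, 77.7 CPM in 3B and 12.5 CPM in 4B. Pool 4B was thus near WT in both, and such predicted genes may share reads with near-identical copies.

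**Figure D3:**
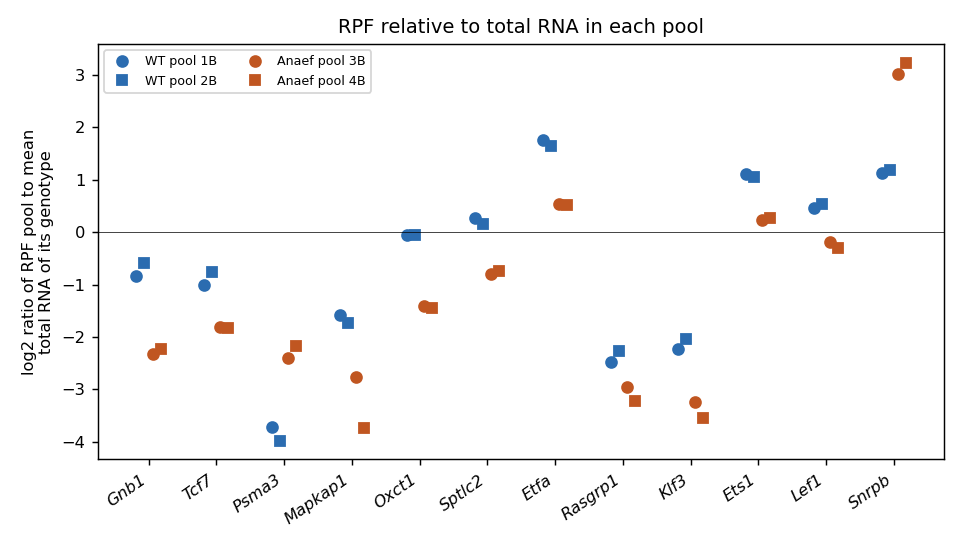
Log2 ratio of RPF in each pool to the mean total RNA of the same genotype, for the 7 genes called by DESeq2, Rasgrp1, Klf3, Ets1, Lef1 and Snrpb. Blue symbols are the WT pools and orange the Anaef pools; the genotypes do not overlap in any of the 12 genes, which were chosen for their differences or, for Rasgrp1, as the mutated gene.

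Rasgrp1 itself (chromosome 2, 117279993 to 117343001, minus strand) had total RNA of 553, 565, 743 and 530.4 CPM in WT and 715, 815, 538 and 693 CPM in Anaef. Its RPF was 107 and 123 CPM in WT and 87.9 and 73.1 CPM in Anaef. The log2 ratio of RPF to total RNA was -2.47 and -2.27 in the WT pools and -2.96 and -3.22 in the Anaef pools, without overlap. The interaction of -0.72 (SE 0.27, unadjusted p = 0.0223, adjusted p = 1) came from an RPF change of -0.51 and a total RNA change of 0.21. It stayed between -0.87 and -0.63 over the alternative settings, and no setting called it. Anaef changes the protein, so these levels do not check the genotype labels.

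Other components of the Ras-ERK pathway were mostly lower in ratio. Of 25, 18 had a value below 0 and 7 above, with a median of -0.11 against -0.05 for all 6335 genes, and 0 were called. Map2k1, which encodes the kinase MEK1, had an interaction of -0.86 (SE 0.42). Dgka, a kinase that removes the diacylglycerol Rasgrp1 binds, was the most abundant of the list in total RNA and had -0.32 (SE 0.29). Without 1 library or another the median of the list ran from -0.26 to -0.03.

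Proximal TCR signalling genes gave 26 of 33 values below 0, with a median of -0.15 and 0 called. Fyn, a Src-family kinase at the receptor, had RPF of 149 and 165 CPM in WT and 102 and 101 CPM in Anaef, with total RNA of 131 to 154 CPM and 112 to 174 CPM. Its interaction was -0.69 (SE 0.26). Fyb, an adaptor of T cell adhesion, had -0.35 (SE 0.20), Grap2, the adaptor GADS, had 0.60 (SE 0.37), and Ptprc, the phosphatase CD45, had -0.11 (SE 0.25). No member of the list other than Fyn had an unadjusted p under 0.05. Of the immediate early and tonic TCR-responsive genes, 15 of 25 were below 0, with a median of -0.07, and Tnfaip3, Myc and Rel had -0.67 (SE 0.31), -0.54 (SE 0.35) and -0.40 (SE 0.28). In each of these 3 the total RNA difference was above 0, at 0.73, 0.38 and 0.52, and the RPF difference was near 0, at 0.06, -0.16 and 0.12.

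Genes of the naive T cell state had the lowest median of the T cell lists. Of 13, 11 had a value below 0 and 2 above, with a median of -0.31, between -0.44 and -0.25 over the alternative settings. In 7 of them both Anaef pools lay below both WT pools (31.7% of all genes tested did), and 0 were called. Tcf7 and Ets1 are described above. Lef1, a partner of TCF-1, had 393 to 553 CPM of total RNA in WT and 486 to 575 CPM in Anaef, with RPF of 631 and 664 CPM in WT and 462 and 427 CPM in Anaef. Its interaction was -0.73 (SE 0.22), the pools of each genotype lying close together. Ccr7, a chemokine receptor of lymph node homing, had 0.23 (SE 0.23) and was chosen for mention after its value was seen.

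The other T cell lists lay on both sides of 0, and differences between lists were not tested. The CD4 identity list, which shares Tcf7, Lef1, Il7r and Ccr7 among others with the naive list, had 16 of 19 values below 0 and a median of -0.22, with Cd4 itself at -0.08 (SE 0.30). Activated and memory genes had 10 of 17 above 0 and a median of 0.02. Among them S100a10, an annexin partner, had 0.96 (SE 0.40) and Gata3, the factor of type 2 helper cells, had -0.63 (SE 0.29). Helper T cell genes had 10 of 15 above 0 and a median of 0.10, with Pdcd1, the receptor PD-1, at 0.66 (SE 0.58) and Batf at 0.54 (SE 0.56).

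Regulatory T cell genes gave 9 of 10 values above 0, with a median of 0.18, between 0.10 and 0.37 over the alternative settings, and 0 called. Ikzf2, the factor Helios, had overlapping total RNA of 27.8 to 47.9 CPM in WT and 37.0 to 55.9 CPM in Anaef. Its RPF was 15.4 and 13.6 CPM in WT and 23.2 and 27.6 CPM in Anaef, an interaction of 0.70 (SE 0.37). Tnfrsf18, the receptor GITR, had RPF of 34.5 and 38.0 CPM in WT and 49.1 and 59.9 CPM in Anaef, and an interaction of 0.46 (SE 0.33). Itgae, an integrin, had 0.83 with an SE of 0.98, and Izumo1r, the most abundant of the list in total RNA, 0.22 (SE 0.26). Foxp3, the defining factor of these cells, had 0.02 (SE 0.58) and was named after its value was seen. Interferon-stimulated genes had 24 of 35 values above 0 and a median of 0.17, with Ifi27l2a and Isg15 at 0.68 (SE 0.38) and 0.63 (SE 0.39) and Zbp1, a nucleic acid sensor, at -0.41 (SE 0.27).

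**Figure D4:**
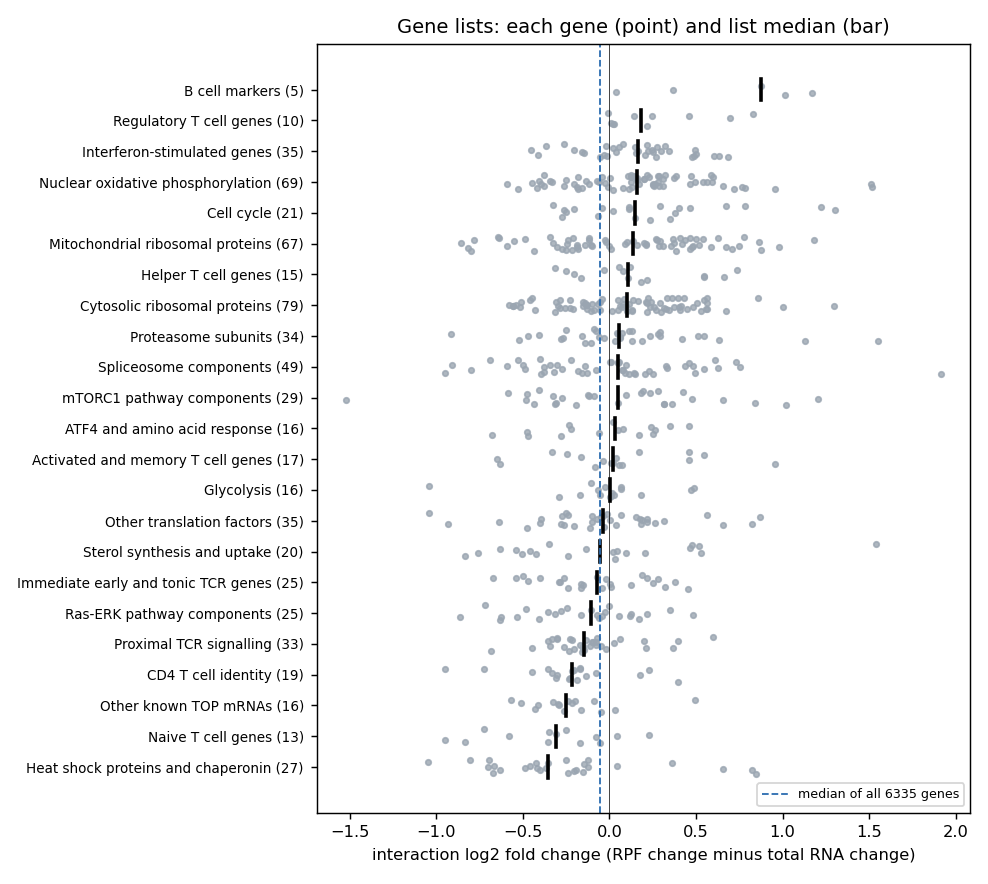
Interaction log2 fold change (x axis) of every gene in each list with at least 5 of the 6335 genes (points, number in brackets) and the list median (bar). The dashed line is the median of all 6335 genes, -0.05; the medians run from -0.36 for heat shock proteins and chaperonin to 0.88 for the 5 B cell markers.

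Ribosomal proteins of the cytosol lay on both sides of 0. Of 79, 48 had a value above 0 and 31 below, with a median of 0.10 and a range of -0.58 to 1.30, and 0 were called. The median was -0.17 without WT replicate 3 and between -0.03 and 0.24 without any other library, so its sign rested on single libraries. The median RPF-to-RNA ratio of the list was -0.56 and -0.42 in the WT pools and -0.39 and -0.56 in the Anaef pools, which overlap. Rpl4 and Rpl5, proteins of the large subunit, had the smallest p. Rpl4 had RPF of 486 and 432 CPM in WT and 325 and 307 CPM in Anaef, with total RNA of 599.9 to 722 CPM and 622 to 766 CPM, an interaction of -0.58 (SE 0.20). Rpl5 had RPF of 287 and 254 CPM in WT and 184 and 187 CPM in Anaef and an interaction of -0.56 (SE 0.25). Rpl13, by contrast, had 0.67 (SE 0.32), and Rps6, the substrate of S6 kinase and the most abundant of the list in total RNA, had -0.51 (SE 0.33). Many ribosomal protein genes have processed pseudogenes that can take a part of their reads.

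The other TOP mRNAs were lower in ratio as a list, by little. Of 16, 14 had a value below 0 and 2 above, with a median of -0.25, between -0.33 and -0.17 over the alternative settings, and 0 were called, nor did any have an unadjusted p under 0.05. In 11 of them both Anaef pools lay below both WT pools, against 31.7% of all genes tested and 31.5% of the 6335. Eef1a1, the elongation factor that delivers aminoacyl-tRNA, had total RNA of 2946 to 4184 CPM in WT and 2437 to 3547 CPM in Anaef, with RPF of 3224 and 3374 CPM in WT and 2596 and 2383 CPM in Anaef. Its interaction was -0.29 (SE 0.27). Eif3e and Eif4b, initiation factors, had -0.57 (SE 0.32) and -0.30 (SE 0.19), and Nap1l1, a histone chaperone, -0.51 (SE 0.28).

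To show what such starts look like beside their values, the RefSeq start sites of the 2 TOP lists (GRCm38.p6) were searched, on the sense strand only, for a C at the first base followed by at least 4 bases that are C or T. This start was found in 14 of 59 ribosomal protein genes with a RefSeq start (23.7%), in 3 of 10 other TOP mRNAs (30.0%), in 152 of 5055 of the genes examined (3.01%) and in 823 of 32851 starts in the table (2.51%). Annotated starts can lie some bases off the true one, so the absence of the letters says only that they are not at that base. Below are the 3 genes with the lowest and the 3 with the highest interaction among those found, chosen by value, as 10 bases before the start and 20 from it, 5′ to 3′, with the run of pyrimidines from the start in capitals.
Rps21 (chr2:180257369-180257398, plus strand): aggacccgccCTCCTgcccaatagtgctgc
Rps6 (chr4:86857348-86857377, minus strand): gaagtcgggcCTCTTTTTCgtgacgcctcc
Nap1l1 (chr10:111473217-111473246, plus strand): gctctcgggtCTTTTTTagcgccatctgct
Rplp2 (chr7:141447641-141447670, plus strand): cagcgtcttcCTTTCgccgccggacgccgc
Rpl35a (chr16:33056472-33056501, plus strand): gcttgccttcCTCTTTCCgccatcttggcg
Rps27 (chr3:90213629-90213658, minus strand): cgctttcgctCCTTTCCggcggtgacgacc

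The 3 starts of the lowest genes and the 3 of the highest both held short and longer runs. The runs were 5, 9 and 7 bases long in Rps21, Rps6 and Nap1l1, whose interactions were -0.54 (SE 0.74), -0.51 (SE 0.33) and -0.51 (SE 0.28). They were 5, 8 and 7 bases long in Rplp2, Rpl35a and Rps27, whose interactions were 0.48 (SE 0.54), 0.51 (SE 0.51) and 0.56 (SE 0.68). The SE of most of these exceeded or neared the value itself. Over all 152 genes with such a start the median interaction was -0.09, against -0.05 in the 4903 with another start and -0.07 in the 1280 with none in the table.

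Translation factors outside the TOP class had 15 of 35 values above 0 and a median of -0.04. Eif5, which triggers GTP hydrolysis at the start codon, had total RNA of 174 to 223 CPM in WT and 165 to 295 CPM in Anaef. Its RPF was 161 and 124 CPM in WT and 72.4 and 82.9 CPM in Anaef, an interaction of -1.04 (SE 0.31). Pdcd4, an inhibitor of the helicase eIF4A that S6 kinase marks for degradation, had RPF of 688 and 519 CPM in WT and 364 and 379 CPM in Anaef, an interaction of -0.93 (SE 0.32). In both genes total RNA overlapped between the genotypes and RPF did not. Eif4g2 was the most abundant of the list in total RNA and had -0.11 (SE 0.18), and Eif2b3 had 0.87 (SE 0.46).

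Components of the mTORC1 pathway and its neighbours were evenly divided, with 15 of 29 above 0 and a median of 0.05. Apart from Mapkap1, the genes with the smallest p were Lamtor5, a subunit of the lysosomal Ragulator complex, at 1.02 (SE 0.53), and Seh1l, of the GATOR2 complex, at -0.59 (SE 0.32). Larp1, which binds TOP mRNAs, had -0.12 (SE 0.30), and its RPF was 116 and 124 CPM in WT and 116 and 123 CPM in Anaef. Genes of the ATF4 and amino acid response had a median of 0.03, with Gars and Mthfd2 at -0.47 (SE 0.25) and -0.68 (SE 0.44). Sterol genes had 10 values on each side and a median of -0.06, with Acaca at 0.51 (SE 0.30).

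Heat shock proteins and the cytosolic chaperonin had the lowest median of all lists with at least 5 genes. Of 27, 22 had a value below 0 and 5 above, with a median of -0.36, between -0.42 and -0.22 over the alternative settings. Both Anaef pools lay below both WT pools in 16, against 31.7% of all genes tested. An unadjusted p under 0.05 was met in 4, all lower, against 3.34% of all genes tested, with 0 called. Hspd1, the mitochondrial chaperonin, had total RNA of 113 to 146 CPM in WT and 105 to 132 CPM in Anaef, with RPF of 177 and 169 CPM in WT and 91.9 and 110.5 CPM in Anaef. Its interaction was -0.70 (SE 0.23). Cct4, a subunit of the cytosolic chaperonin, had RPF of 282 and 271 CPM in WT and 189 and 172 CPM in Anaef, an interaction of -0.81 (SE 0.28). Dnaja2, a partner of Hsp70, had -0.67 (SE 0.25). Hspa8, the most abundant of the list in total RNA, had 0.05 (SE 0.28), and another chaperonin subunit, Cct8, had 0.82 (SE 0.39) and was named after its value was seen.

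Nuclear genes of oxidative phosphorylation had 45 of 69 values above 0 and a median of 0.16, with 3 at an unadjusted p under 0.05, all higher, against 3.34% of all genes tested, and 0 called. Ndufa7 and Ndufa1, small subunits of complex I, had 1.51 (SE 0.61) and 1.52 (SE 0.67), and Atp5j, of the ATP synthase, 0.65 (SE 0.27). In Ndufa7 the total RNA of WT replicate 3, 17.1 CPM, was far above the other WT libraries, at 7.27 to 8.64 CPM. The median of the list was -0.07 without WT replicate 3 and between 0.07 and 0.27 without any other library, and it was 0.01 once the trend with coding length had been removed. Mitochondrial ribosomal proteins had 37 of 67 above 0 and a median of 0.13, which came to 0.003 without WT replicate 3. Spliceosome components had 27 of 49 above 0 and a median of 0.05, with Prpf19 and Snrnp40 at -0.95 (SE 0.34) and -0.69 (SE 0.28).

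Glycolytic genes had a median of 0.01 over 16, with Gapdh at -1.04 (SE 0.41), Pfkl at 0.47 (SE 0.32) and Slc2a1 at 0.49 (SE 0.41). Reads of Gapdh may be shared with its many pseudogenes. Cell cycle genes had 14 of 21 above 0 and a median of 0.15, with H2afz at 0.67 (SE 0.29), Stmn1 at 0.78 (SE 0.58) and Ccnd2 at -0.33 (SE 0.27).

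Markers of other cell types were among the 6335 genes in small numbers. All 5 B cell markers had a value above 0, with a median of 0.88, which ran from 0.05 to 1.70 with single libraries left out. Cd74, the invariant chain, had total RNA of 39.1 to 91.8 CPM in WT and 1.85 to 58.0 CPM in Anaef, with RPF of 138 and 96.7 CPM in WT and 68.9 and 103 CPM in Anaef. Its interaction of 0.88 had an SE of 1.12. Jchain, the joining chain of secreted antibodies, had RPF of 1067 and 559 CPM in WT and 333 and 103 CPM in Anaef and total RNA of 36.9 to 118 CPM and 11.2 to 24.4 CPM. RPF and total RNA of Jchain were thus both lower in Anaef, and the interaction was -0.09 (SE 0.75). The 2 myeloid markers, Itgam and Cst3, had 0.44 (SE 0.43) and 0.57 (SE 0.88), and 3 of the 4 CD8, NK and gamma-delta T cell markers were below 0.

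The interaction varied with the length of the coding sequence. In decile 1, the shortest coding sequences, of 111 to 549 bases, its median was 0.20. In deciles 4, 5 and 6, from 1038 to 1779 bases, it was -0.17, -0.16 and -0.16, and in decile 10, the longest, it was 0.08. The medians of RPF alone followed the same course, from 0.28 in decile 1 to -0.15 in decile 5 and 0.14 in decile 10, while those of total RNA lay between 0.01 and 0.08 throughout. The pools of 1 genotype differed less along this axis, by -0.08 to 0.07 between 1B and 2B and by -0.05 to 0.06 between 3B and 4B. Of the 235 genes with a lower ratio at an unadjusted p under 0.05, 181 (77.0%) had coding sequences in quartiles 2 and 3 of length. With the trend with coding length removed from each library, 195 were lower and 57 higher, with 0 called.

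**Figure D5:**
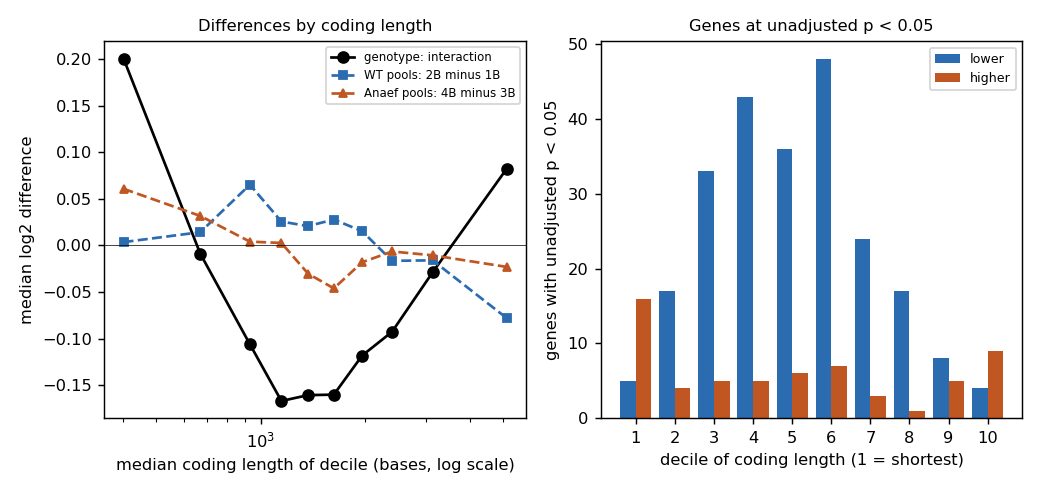
Left, median interaction in deciles of the 6335 genes by coding length (log axis, bases), with the median difference between the pools of each genotype. Right, genes with a lower or higher ratio at an unadjusted p under 0.05 in each decile; the lower genes peak in decile 6, with 48, and decile 1 has 5.

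Other properties were tied to the interaction weakly. Across the 6335 genes, which share their libraries and are not independent, Spearman's rho of the interaction was -0.18 with the length of the 3′ untranslated region, 0.14 with the GC content of the coding sequence, -0.08 with the length of the 5′ untranslated region and 0.08 with the ratio of RPF to total RNA in WT. The median interaction by quartiles of 3′ untranslated length, from the shortest to the longest, was 0.05, -0.01, -0.08 and -0.14. Coding GC was tied more closely to the difference between WT pools 2B and 1B, with a rho of 0.50, than to the interaction, and the rho with the difference between the Anaef pools was 0.09. With a trend in coding GC removed from each library, a setting added after the data were seen, 227 genes were lower and 80 higher at an unadjusted p under 0.05, and 0 were called.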

How the data were processed

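The authors deposited 1 table of unnormalized counts for each gene, with the RPF columns named as masked. Per the submitters' processing notes, TopHat 1.4.1 and GRCm38 were used. The sources used here do not give the counting tool, its strand setting or the mask. Symbols were matched to GENCODE annotation of GRCm38 for 44595 of 45669 entries, with 263 joined and 811 unmatched; 130 joined entries past both minimums were left out.

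All 12 libraries were fitted in edgeR 4.0.16 (R 4.3.3; TMM scaling, filterByExpr, quasi-likelihood test), with Benjamini-Hochberg adjustment over 19031 genes, after the fit was tested on simulated data. Ratios per pool used log2 CPM with a prior count of 2. Alternatives were DESeq2 1.42.0, limma-voom (limma 3.58.1) with and without quality weights, RLE size factors, no filter, the 6335 genes alone, removal of a lowess trend (span 0.3) with coding length or GC, and leaving out each library.

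Members and the 26 lists were chosen with earlier results of these data known. Named were Rasgrp1, the 10 genes with the smallest p in each direction, up to 3 per list with the smallest p and its most abundant member in total RNA, the 2 most abundant of each other-cell list, and 2 genes on each side of the count minimum. A few of the genes so named are not reported here.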

Additional observations from a re-analysis of the deposited data

Results flagged for a closer look

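In 16 of 224 pairs of a named gene and a total RNA group, 1 of the 4 libraries lay apart from the other 3 by Dixon's criterion, which chance meets in about 1 of 20 groups. The RPF groups have 2 pools and were not examined so. WT replicate 3, the shallowest total RNA library, was the one apart in 8 pairs, always as the highest: Rasgrp1 at 743 CPM against 530.4 to 565 CPM in the others, Dgka at 2030.4 CPM against 1181 to 1234 CPM, Eef1a1 at 4184 CPM against 2946 to 3106 CPM, Sf3b1 at 815 CPM against 719 to 721 CPM, Grap2 at 98.2 CPM against 74.3 to 76.5 CPM, Gars at 29.9 CPM against 22.0 to 23.3 CPM, Gabrr2 at 27.1 CPM against 17.6 to 18.7 CPM and Ndufa7 at 17.1 CPM against 7.27 to 8.64 CPM. The list medians whose sign changed without this library are given above.

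Anaef replicate 7 was apart in 4 pairs. It was the highest for H2-Aa and H2-Ab1, class II genes of antigen-presenting cells, at 7.67 CPM against 0 to 0.249 CPM and at 15.7 CPM against 0.871 to 3.02 CPM, and for Gm12166 at 2.81 CPM against 1.41 to 1.62 CPM. It was the lowest for Xbp1, at 50.5 CPM against 63.2 to 63.9 CPM. Anaef replicate 6 was the highest for Ptprc, at 4692 CPM against 3274 to 3421 CPM. WT replicate 2 was the highest for Gata3, at 20.4 CPM against 15.8 to 16.5 CPM, and for Slc1a5, at 88.4 CPM against 80.8 to 81.1 CPM. WT replicate 4 was the lowest for Isg15, at 8.64 CPM against 10.6 to 10.9 CPM.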

How the results depend on the processing

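Of the 112 named genes, 95 kept the sign of the interaction in all 20 alternative settings. DESeq2 called 10 of all genes tested and 7 of the 6335 for the interaction, 43 of the 6335 for total RNA and 9 for RPF, where edgeR called 0 of the 6335 in each. Leaving out 1 library gave 0 to 1 calls over all genes tested, the 1 being a gene outside the 6335 without WT replicate 1, and 0 calls among the 6335 in each case. The sign changed in some setting in the others. Among them were Ctsw (0.0991 with limma-voom, 0.00133 with quality weights, 0.0106 with the 6335 genes alone, 0.0552 with the length trend removed), Cd4 (0.0656 with quality weights, 0.0483 with the length trend removed) and Hspa8 (-0.00255 with quality weights). Further ones were H2-Ab1 (-0.00326 with no filter, -0.0231 with the GC trend removed), Cd40lg (0.0195 with the 6335 genes alone, 0.0509 with the GC trend removed) and Ldha (0.0253 with the length trend removed). With the GC trend removed Eif4g2 came to 0.00253, Ptprc to 0.00903 and Jchain to 0.0105.

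With single libraries left out the values ranged from -0.0466 to 0.25 for Btla, -0.238 to 0.0922 for Cd40lg, -0.201 to 0.118 for Cd4, -0.327 to 0.244 for Ctsw, -0.0346 to 0.441 for Ddit4, -1.36 to 1.7 for H2-Ab1, -0.255 to 0.263 for Hspa8, -0.195 to 0.86 for Itgam, -1.17 to 0.489 for Jchain, -0.557 to 1.16 for Klrd1, -0.233 to 0.0738 for Larp1, -0.216 to 0.0807 for Ldha, -0.00822 to 0.0802 for Sf3b1, -0.0907 to 0.298 for Tuba1b and -0.159 to 0.56 for Xbp1. The cause of these changes was not tested. No paired analysis was possible because the total RNA libraries and the RPF pools share no replicate numbers. With 1 pool left in a genotype, it was assumed to vary like the other groups. With 2 pools a genotype and at most 7009342 counts a pool, the median SE of 0.40 sets the size of change that could be seen in a single gene.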
